A study of Mus musculus with 5 samples.

Results

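The 36 genes described here encode the fibrinogen chains, the clotting factors, their plasma inhibitors and cofactors, and the complement proteins that the liver secretes. They were chosen by name from known function. No measured value entered the rule, though earlier results of these data were known when it was made. All 36 were in both liver count tables and 29 in the aorta table, of 25872 genes in the 3 tables together. Fga, Fgb, Fgg, Kng1, Mbl1, Mbl2 and C8b were not analysed in aorta.

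RNA was measured in single cells of 5 mouse libraries made with a 10x Genomics kit, whose unique molecular identifiers (UMIs) count RNA molecules. Each group was 1 library. One liver and one aorta library are labelled DKO with ApoE in their titles, and a further liver and aorta library are labelled WT with ApoE. The fifth, from liver, is labelled WT with no ApoE. The labels do not spell out DKO or ApoE, name no promoter or Cre, and give no age, sex or diet; the protocol speaks of 3 mice without tying them to libraries, and the series title concerns liver epsins, adaptors of endocytosis. In hepatocytes the epsin gene Epn1 stood at 71.2 UMIs per 1000000 (CPM) in the DKO-labelled library and at 58.7 CPM in the WT-labelled one, a ratio of 1.21 (95% counting interval 1.08 to 1.36). Epn2, with 79 and 67 UMIs, had a ratio of 1.13 (0.805 to 1.59). Neither epsin was lower under the DKO label, and where a deletion would lie was not given in the sources used here, so the text speaks of libraries by their labels throughout.

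Hepatocytes secrete most of the proteins of blood clotting and complement into the plasma, where they circulate as inactive precursors. In clotting, a chain of serine proteases ends in thrombin, which turns fibrinogen into fibrin, while serpins and the protein C pathway hold the chain back. In complement, the classical, lectin and alternative routes meet at C3, and the terminal components C5 to C9 assemble into the membrane attack complex. In rodents as in other mammals, several of these proteins, fibrinogen and C3 among them, are acute-phase proteins made under the control of STAT3 and C/EBP factors.

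The hepatocyte class held 3213 cells and 9161442 UMIs in the DKO-labelled library, 4015 cells and 8769666 UMIs in the WT-labelled library with ApoE, and 505 cells and 1705101 UMIs in that without. Clusters that the authors call hepatocytes but that genes of other cell types lead were left out. Hepatocyte markers summed to 62461, 73844 and 63965 CPM in these 3 classes, of which the albumin gene Alb gave 37793.9, 44388.2 and 37053.5 CPM. Alb also stood at 17457 and 35226 CPM in the cluster named Kupffer cells under the DKO and WT labels with ApoE. The sum alone therefore does not tell hepatocytes from other cells, and the name is the authors'. The 36 genes took 2.09%, 2.41% and 2.65% of the hepatocyte UMIs, and the 29 measured in aorta took 0.0661% and 0.0717% of all aortic UMIs. With 1 library per group no difference has a replicate check, and every interval here covers counting error only. A gene is called measured in a comparison where both libraries together held at least 100 of its UMIs, and past the fold where its CPM differed by at least 1.5 times.

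In hepatocytes, 35 of the 36 genes were measured between the DKO-labelled and WT-labelled ApoE libraries. Of these, 13 stood higher and 22 lower under the DKO label, with a median log2 ratio of -0.12 against 0.00 over all 8282 genes measured. None was higher by 1.5 times, where 2.28% of all genes were. The lower ones past that fold were Apoh, C8g and Kng1, 3 genes against a background of 2.69% of all genes. The counting interval lay above 1 for 8 members and below 1 for 18, against 15.9% and 18.4% of all genes, and included 1 for 9. Such an interval narrows as a gene's UMIs rise, and all genes were not matched to the members in UMIs. These shares therefore do not show that members differed more often than other genes. The transcripts thus differed by modest amounts and in both directions. Member ratios rose with exon length, with a rank correlation of 0.414 over the 35 members against 0.089 over 8218 genes. With genomic span it was 0.199 against -0.0233, and the part of gene length was not tested. The class is a different mix of clusters in each library, such as 462 and 214 cells of cluster 7, 146 and 663 of cluster 3 and 791 and 479 of cluster 2 under the DKO and WT labels. With clusters weighted alike, 1 member was lower past the fold. In the deeply counted clusters 5, 7 and 8 alone the median was 0.032 and no member was lower past the fold. With mitochondrial and ribosomal or background RNA genes out of the total, the median was -0.033 against 0.09 over all genes, and again none was past the fold. Mitochondrial genes took 11.4% of the hepatocyte UMIs under the DKO label and 7.98% under the WT label, and their part in these ratios beyond that change of total was not tested.

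**Figure D1:**
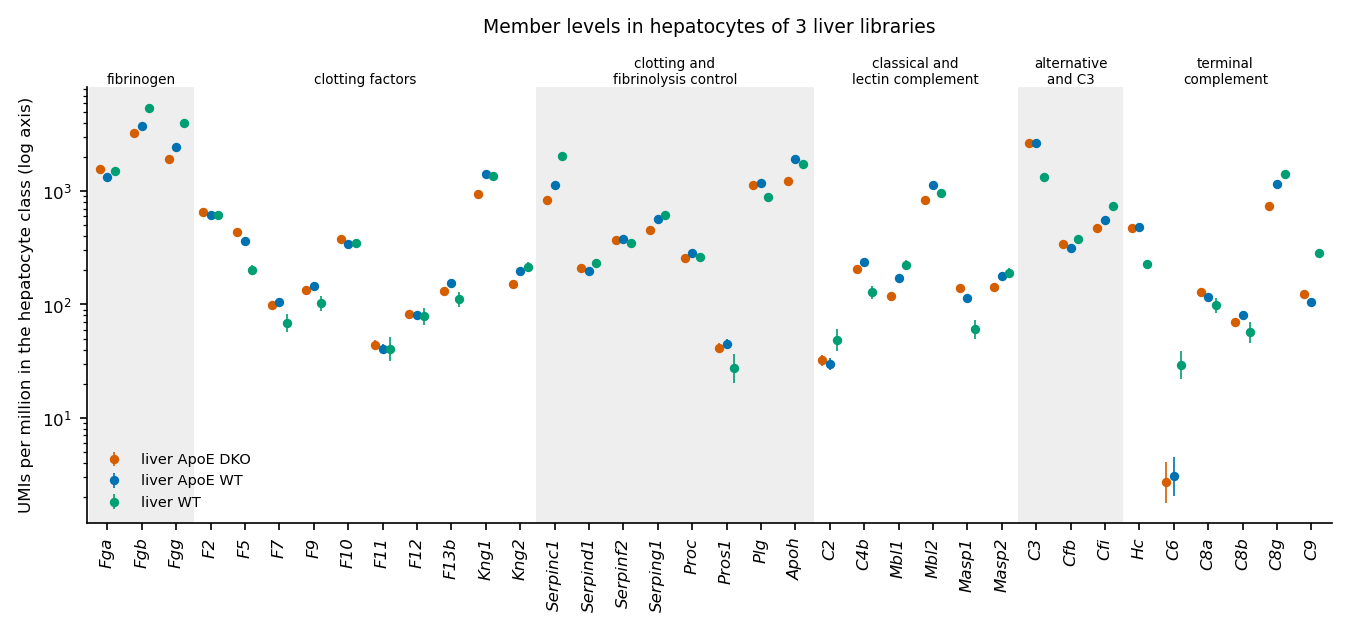
Level of each of the 36 genes in the hepatocyte class of the 3 liver libraries, in CPM on a log axis, with genes grouped by role; points are single libraries and bars are 95% counting intervals. The DKO-labelled and WT-labelled ApoE libraries lie close together for most genes, while C6 and C9 stand above both in the library without ApoE and C3 and Hc stand below both.

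Fibrinogen is built from an alpha, a beta and a gamma chain, and the genes of the 3 chains neighbour each other on chromosome 3. In GENCODE vM21 on GRCm38, Fgg lies at 83007724 to 83015049 and Fga at 83026076 to 83033627, both on the plus strand, and Fgb at 83040141 to 83049863 on the minus strand. Fga ends 6513 bp from Fgb, and 11026 bp separate it from Fgg. Fga, the alpha chain, had 14517 UMIs under the DKO label and 11647 under the WT label, or 1585 and 1328 CPM, a ratio of 1.19 (1.16 to 1.22). Fgb, the beta chain, had 30027 and 32744 UMIs, or 3278 and 3734 CPM, a ratio of 0.878 (0.864 to 0.892). Fgg, the gamma chain, had 17800 and 21624 UMIs, or 1943 and 2466 CPM, a ratio of 0.788 (0.772 to 0.804). The 3 chains of 1 protein therefore did not move together: the alpha chain was higher and the gamma chain lower.

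The same opposition held within clusters. Of the 9 hepatocyte clusters that held 50 or more cells under each label, Fga was higher in 8, from 0.925 in cluster 2 to 1.33 in cluster 3. Fgg was lower in 9 of 9, from 0.705 in cluster 0 to 0.947 in cluster 7. Fgb fell between them, with 0.695 in cluster 2 at one end and 1.22 (1.18 to 1.27) in cluster 7 at the other.

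The start regions of the 3 chain genes are shown because the chains are known acute-phase products and yet differed here in direction. The sequences are RefSeq's on GRCm38.p6, read 5′ to 3′ on each gene's own strand. Each covers the 250 bases before the RefSeq start, less any base inside a GENCODE exon, which shortens that of Fga to 173 bases. Capitals mark matches to CTGGGAA, a form of the STAT3 acute-phase element, and to TTGCNNAA, a C/EBP-like core, searched on both strands.
Fga, plus strand, chr3:83025903-83026075: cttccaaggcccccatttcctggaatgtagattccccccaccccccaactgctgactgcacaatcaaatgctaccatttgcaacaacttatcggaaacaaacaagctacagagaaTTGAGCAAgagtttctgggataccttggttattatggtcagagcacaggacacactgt
Fgb, minus strand, chr3:83049864-83050113: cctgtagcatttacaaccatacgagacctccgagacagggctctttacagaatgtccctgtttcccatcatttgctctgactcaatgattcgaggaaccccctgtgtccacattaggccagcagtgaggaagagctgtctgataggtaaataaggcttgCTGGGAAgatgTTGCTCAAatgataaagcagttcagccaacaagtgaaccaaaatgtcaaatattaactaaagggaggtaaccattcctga
Fgg, plus strand, chr3:83007474-83007723: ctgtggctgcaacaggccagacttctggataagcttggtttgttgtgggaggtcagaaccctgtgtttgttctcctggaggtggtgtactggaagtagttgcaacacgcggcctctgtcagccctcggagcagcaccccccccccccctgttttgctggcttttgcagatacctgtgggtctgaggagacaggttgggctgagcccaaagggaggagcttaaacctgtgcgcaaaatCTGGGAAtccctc
Fga held the C/EBP core alone, on its reverse strand, Fgg the CTGGGAA element alone, and Fgb held both. Start regions of 27 of the 36 genes were matched. TTGCNNAA was in 7 of them (Fga, Fgb, F9, F11, Kng2, C3 and C9), or 25.9%, against 10.8% of 27025 genes. CTGGGAA was in 4 (Fgb, Fgg, F9 and Masp2), or 14.8%, against 10.4%. An HNF1 consensus site, searched alike, was in F13b and Hc, or 7.41%, against 0.44%. CAAAGTCCA, an HNF4 site, was in none of the 27 against 0.451% of all, and TTGCGCAA, which TTGCNNAA includes, in none against 0.185%. A match describes letters in a window and nothing of binding.

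**Figure D2:**
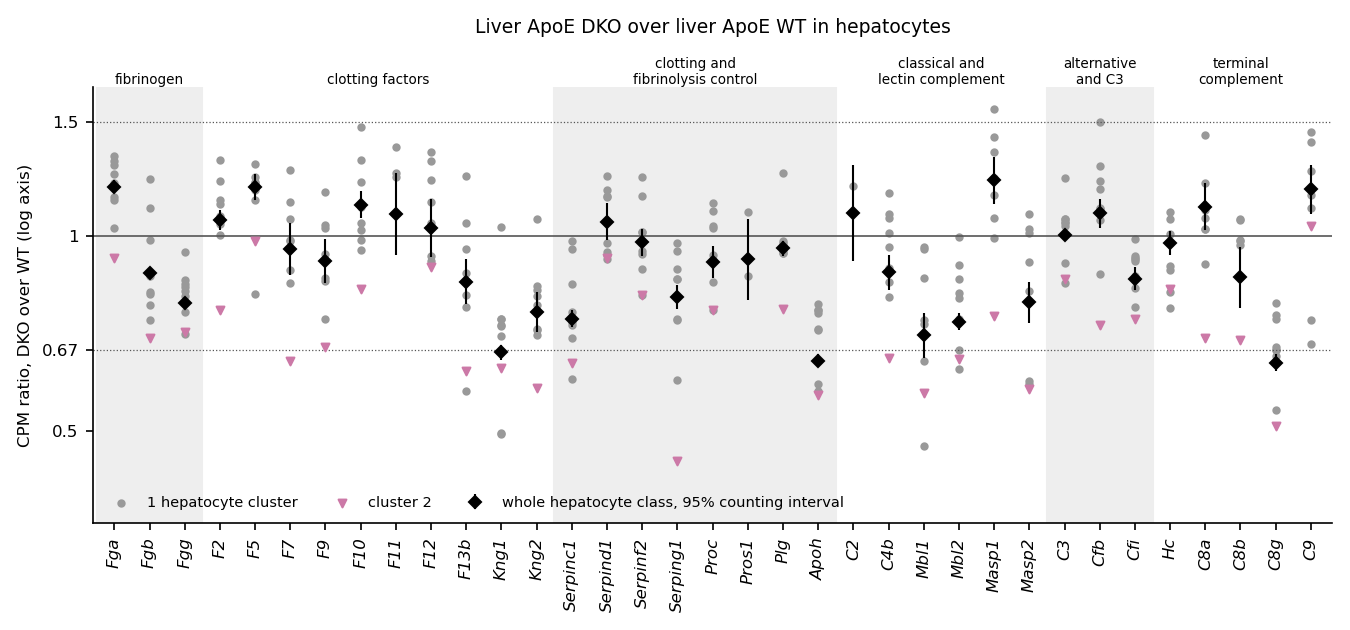
CPM ratio of the DKO-labelled over the WT-labelled ApoE liver library on a log axis, for the 35 measured genes by role; black diamonds with 95% counting intervals are the whole hepatocyte class, grey points single clusters and triangles cluster 2. Apoh, C8g and Kng1 lie lowest among the class values, and cluster 2 lies below the class value for most genes.

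The clotting factors divided evenly. Of the 10, 5 were higher and 5 lower, with a median log2 ratio of -0.01. F5, the cofactor of activated factor X, stood at 437 CPM under the DKO label and 367 CPM under the WT label, a ratio of 1.19 with a lower bound of 1.14. F10, the protease that F5 assists, stood at 380 and 339 CPM, a ratio of 1.12 (1.06 to 1.17). F2, prothrombin, stood at 651 and 615 CPM, a ratio of 1.06 (1.02 to 1.10). Transcripts of F10 and F5, whose proteins form the complex that makes thrombin, and of its substrate F2 were thus each a little higher over the class. By cluster F2 was higher in 8 of 9, F5 in 7 and F10 in 6. Their lowest ratios were 0.769 in cluster 2, 0.812 in cluster 6 and 0.830 in cluster 2. F9, the haemophilia B factor, was lower at 134 against 147 CPM (0.915, 0.845 to 0.990), as was F13b, the carrier subunit of the fibrin-crosslinking factor XIII, at 130 against 153 CPM (0.850, 0.786 to 0.920). F7, which starts clotting with tissue factor, and F11 and F12, of the contact pathway, had intervals that included 1, with ratios of 0.956, 1.08 and 1.03.

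The kininogens, substrates of plasma kallikrein and cofactors of the contact pathway, were lower. Kng1 lies on chromosome 16 at 23057865 to 23082078 on the plus strand, 28382 bp from Kng2. It had 8605 UMIs under the DKO label and 12463 under the WT label, or 939 and 1421 CPM, a ratio of 0.661 (0.643 to 0.679). Kng2 stood at 150.4 and 197 CPM, a ratio of 0.764 (0.711 to 0.820). Kng1 was lower in 8 of the 9 clusters, from 0.494 in cluster 0, and stood at 1.03 in cluster 7. The paralogs are alike in sequence, so reads counted for one may have come from the other.

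The next 8 genes are inhibitors and regulators of clotting, complement and fibrinolysis, with plasminogen, the zymogen that dissolves fibrin, among them. Of these, 1 was higher and 7 lower, where 50.1% and 49.9% of all genes were, with a median of -0.13. Apoh, the phospholipid-binding beta-2 glycoprotein I, lies on chromosome 11 at 108343354 to 108414396 on the plus strand, where it overlaps Prkca on the opposite strand. It had 11318 UMIs under the DKO label and 16883 under the WT label, or 1235 and 1925 CPM, a ratio of 0.642 (0.627 to 0.657). It was lower in 9 of 9 clusters, from 0.567 in cluster 2 to 0.784 in cluster 8, with every interval below 1. Serpinc1, antithrombin, the main inhibitor of thrombin and factor X, had 7683 and 9866 UMIs, or 839 and 1125 CPM, a ratio of 0.745 (0.723 to 0.768). It too was lower in all 9 clusters, from 0.60 in cluster 1 to 0.981 in cluster 7. Serpinc1 overlaps Zbtb37 on the opposite strand. Whether counting used strand was not given in the sources used here, so reads of the partner genes cannot be told apart. The same holds for Plg, Serpind1 and C2, which overlap Slc22a3, Pi4ka and Zbtb12 in turn on the opposite strand.

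Serping1, the inhibitor of C1 and of the contact proteases, stood at 456 and 567 CPM, a ratio of 0.805 (0.772 to 0.839). Across clusters it ran from 0.448 in cluster 2 to 0.977 in cluster 4. Proc, protein C, stood at 259 and 284 CPM (0.912, 0.861 to 0.965), and Plg, plasminogen, at 1137 and 1188 CPM (0.958, 0.932 to 0.984). Pros1, protein S, the cofactor of protein C, had 376 and 391 UMIs and a ratio of 0.921 (0.797 to 1.06). Serpind1, heparin cofactor II, stood higher at 1.05 (0.986 to 1.12), and Serpinf2, which inhibits plasmin, was level at 0.979; neither interval excluded 1. Only Apoh in this group passed the fold. The count of lower genes depends on the total: with mitochondrial and ribosomal or background RNA genes left out of it, the log2 ratios of Serpinf2 and Plg turned to 0.056 and 0.025 and that of Apoh was -0.55, short of the fold.

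F2, F7, F9, F10, Proc and Pros1 encode proteins whose glutamates are carboxylated with vitamin K. Their ratios were 2 higher and 4 lower with a median of -0.09. Of the vitamin K cycle itself, whose genes are not among the 36, Vkorc1, the epoxide reductase, was lower at 0.731 (0.689 to 0.775), and Ggcx, the carboxylase, was higher at 1.16.

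In the classical and lectin routes of complement, 2 genes were higher and 4 lower, with a median of -0.26. Mbl1 and Mbl2, the mannose-binding lectins, stood at 119 against 170.1 CPM and at 833 against 1129 CPM, with ratios of 0.702 (0.649 to 0.759) and 0.738 (0.716 to 0.760). Both were lower in 9 of 9 clusters, with the interval below 1 in 6 for Mbl1 and 8 for Mbl2. Mbl1 ran from 0.473 in cluster 6 to 0.961 in cluster 8, and Mbl2 from 0.622 in cluster 6 to 0.996 in cluster 5. Their proteases split: Masp1 was higher at 1.22 (1.12 to 1.33), and Masp2, which cleaves C4 and C2, lower at 0.789 (0.733 to 0.850). Masp1 overlaps Rtp4 and Masp2 overlaps Tardbp on the opposite strand, with the same limit as for Apoh. C4b, the substrate of both routes, was lower at 0.879 (0.826 to 0.936), and C2 included 1 at 1.09 (0.916 to 1.29).

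C3, where the routes meet, was level over the class. It had 24661 UMIs under the DKO label and 23497 under the WT label, or 2692 and 2679 CPM, a ratio of 1.0 (0.987 to 1.02). Across the 9 clusters C3 was higher in 6 and lower in 3, from 0.848 in cluster 1 to 1.23 in cluster 7. Its interval lay above 1 in 2 clusters and below 1 in 3. Cfb, the protease of the alternative route, was slightly higher at 340.1 against 314 CPM (1.08, 1.03 to 1.14), and Cfi, which cleaves C3b and C4b, lower at 477 against 556 CPM (0.859, 0.824 to 0.895).

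The terminal components were mixed, with 2 higher and 3 lower of 5 measured and a median of -0.04. C8g, the lipocalin subunit of C8, lies on chromosome 2 at 25498651 to 25501719 on the minus strand, and had 6804 UMIs under the DKO label against 10228, or 743 and 1166 CPM. Its ratio of 0.637 (0.617 to 0.657) was the lowest of the 35, and it was lower in 9 of 9 clusters, from 0.508 in cluster 2 to 0.787 in cluster 5. The gene overlaps Fbxw5 on the opposite strand, so the same limit applies. The other C8 subunits did not share that level: C8a stood at 1.11 (1.02 to 1.21) and C8b at 0.863. Hc, the mouse gene of C5, was level at 473 and 485 CPM (0.974, 0.934 to 1.02), C9, the pore-forming component, was higher at 123 against 104 CPM (1.18, 1.08 to 1.29), and C6 had only 25 and 27 UMIs.

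Cluster by cluster, 8 of the 25 members measured in all 9 clusters were lower in every one: Fgg, Apoh, C8g, Serping1, Serpinc1, Mbl1, Mbl2 and Cfi. The background was 16.6% of all genes so measured. Of the 8, Mbl2 at 0.996 in cluster 5 and Cfi at 0.991 in cluster 7 were near level. No member was higher in every cluster, where the background was 3.56%. Cluster 2 stood apart. There, 31 of 32 measured members were lower, 12 of them past the fold against 12.8% of all genes, with a median of -0.51 for members and -0.12 for all genes. The 12 were F7, F13b, Kng1, Kng2, Serpinc1, Serping1, Apoh, C4b, Mbl1, Mbl2, Masp2 and C8g, and Alb, no member, stood at 0.649 there. It held 791 cells under the DKO label and 479 under the WT label, with medians of 945 and 1287 UMIs per cell; the part of this depth in the ratios was not tested. In the other clusters fewer members were lower past the fold. They were 4 in cluster 0 (Kng1, Apoh, Mbl2 and Masp2) against 8.03% of all genes and 5 in cluster 1 (Kng1, Serpinc1, Apoh, Masp2 and C8g) against 8.72%. Cluster 6 had 5 of 25 (F13b, Serping1, Mbl1, Mbl2 and C8g) against 19.3%, near the background. Cluster 3 had Mbl1, against 13.1%, and cluster 8 had C8g, against 2.59%. No member was lower past the fold in clusters 4, 5 and 7, where 11.1%, 2.54% and 2.68% of all genes were. Masp1 was higher past the fold in cluster 3, at 1.57, against 3.45%. Cluster 7, with 462 and 214 cells and medians of 5308 and 5281 UMIs, had 18 members higher and 16 lower. Its 1 member past the fold was Cfb, at 424 and 282 CPM (1.5, 1.32 to 1.71), against 3.12% of all genes higher. C9 stood at 1.45 (1.21 to 1.74) there but at 0.680 (0.495 to 0.932) in cluster 5 and 0.742 (0.588 to 0.938) in cluster 8, so its direction turned with the cluster.

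Other genes of these pathways did not move as one either. Of 8 other clotting genes measured in hepatocytes, 5 were higher and 3 lower, with a median log2 ratio of 0.05; Cpb2, the carboxypeptidase that slows fibrinolysis, was lowest at 290.3 against 551 CPM (0.527, 0.503 to 0.553). Of 9 other complement genes, 5 were higher and 4 lower with a median of 0.08, among them Vtn, vitronectin, at 0.822 (0.798 to 0.848).

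Zonation is the change in hepatocyte genes from the portal to the central vein. Many members differed along it. Clusters 5 and 7 mark its ends: Glul, the glutamine synthetase of pericentral cells, was 23.4-fold and 14.1-fold higher in cluster 5 than in 7 under the DKO and WT labels, and Cyp2f2, a periportal cytochrome, stood at 0.0365 and 0.0975. Of 33 members measured in both libraries, 27 were higher in cluster 7 in both and 3 were higher in cluster 5 in both. Past the fold in both libraries were 10 toward cluster 7 (Fgb, F10, F12, Kng1, Serpinc1, C4b, Cfi, Hc, C8a and C9) and 1 toward cluster 5. The shares of all genes that met these counts in both libraries were not computed. In single libraries, 15 of 35 and 11 of 33 members were past the fold toward cluster 7 under the DKO and WT labels, against 8.8% and 7.48% of all genes. Toward cluster 5 were 1 and 2 members, against 12.5% and 9.4% of all genes. Clusters were made from these same cells and all their genes, so these values describe the clusters and are no test. Alb, the albumin gene and no member, stood at 0.347 and 0.411.

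The member toward the central vein was Pros1, at 54.4 CPM in cluster 5 and 25.9 CPM in cluster 7 under the DKO label, a ratio of 2.10 (1.51 to 2.95). Under the WT label it stood at 62.6 and 28.6 CPM, a ratio of 2.19 (1.44 to 3.41). Mbl1 lay on the same side at 1.43 and 1.58, and F5 at 1.11 and 1.13. Most others stood higher in cluster 7, though for Serpinf2, Masp2 and C8b the interval included 1 in both libraries. C9 stood at 0.219 of its cluster 7 level under the DKO label and 0.467 under the WT label, and Kng1 at 0.419 and 0.597. Serpinc1 was close to the same in both libraries, at 0.551 and 0.566, as was F12, at 0.521 and 0.447. The fibrinogen chains kept one order in both libraries, with Fgb at 0.579 and 0.642, Fgg at 0.611 and 0.705, and Fga at 0.698 and 0.765. C6, below the UMI minimum, had 18 UMIs in cluster 5 and 0 in cluster 7 under the DKO label, and 5 and 0 under the WT label.

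**Figure D3:**
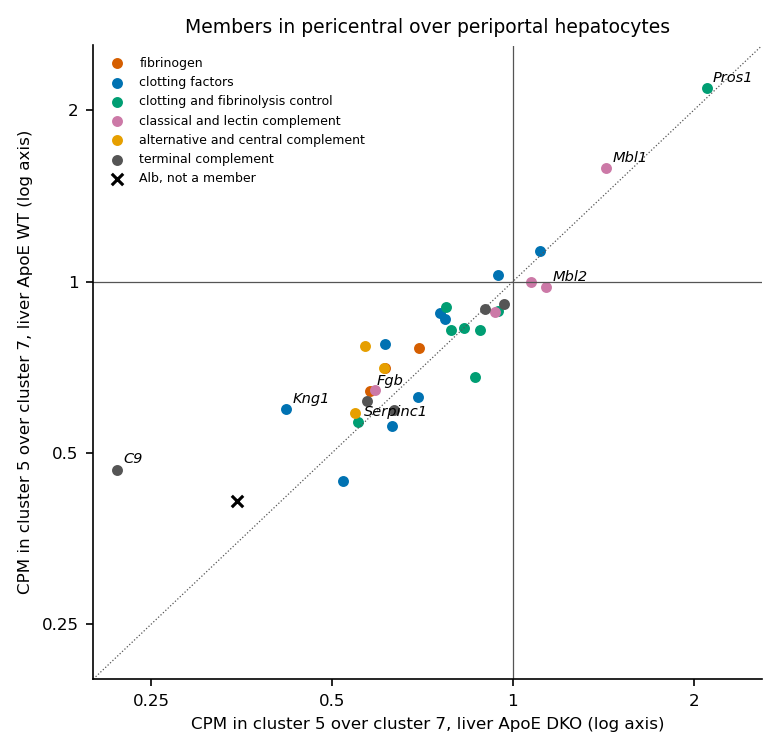
Each point is a member measured in both libraries: its CPM in pericentral cluster 5 over that in periportal cluster 7, for the DKO-labelled library on the horizontal and the WT-labelled ApoE library on the vertical axis, both logarithmic; the cross is Alb. Pros1 lies at the upper right, at 2.10 and 2.19, and most members lie below 1 on both axes.

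The WT-labelled liver libraries with and without ApoE differed by more. Of 35 members measured, 18 were higher and 17 lower in the library with ApoE, and the median log2 ratio was 0.03 against 0.02 over 7112 genes. Past the fold, 7 were higher and 4 lower, against 18.3% and 18% of all genes, so that the shares of members lay near those of all genes. The 2 libraries come from separate tables, and the one without ApoE was small and more deeply counted per cell, with a median of 2771.5 UMIs per cell in the library against 1552. Label, table and depth cannot be told apart. The ratios also rose with the genomic span of the gene, with a rank correlation of 0.407 over the 35 members and 0.308 over 7050 genes. The part of gene length in them was not tested. The library with ApoE is also the one that the DKO-labelled liver library was set against, so both sets of ratios share it. Apoe itself stood at 36.3 CPM in hepatocytes with the ApoE label and at 52.8 CPM without.

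The complement routes were on both sides here. C3 stood at 2679 CPM with ApoE and 1349 CPM without, a ratio of 1.99 (1.90 to 2.07). Hc, or C5, stood at 485 and 226 CPM, a ratio of 2.15 (1.94 to 2.39). C4b was at 1.84 (1.60 to 2.12) and Masp1 at 1.90 (1.55 to 2.36). C9 went the other way, at 104 against 286 CPM, a ratio of 0.365 (0.327 to 0.408), and so did C2 at 0.609 (0.474 to 0.790). Across hepatocyte clusters the C3 levels ran from 1947 to 3109 CPM with ApoE and from 1077 to 1897 CPM without. Those of Hc ran from 349.8 to 601 CPM with ApoE and from 137 to 329.7 CPM without. The C9 levels ran from 67.2 to 144 CPM with ApoE and from 127 to 379 CPM without. Clusters of 1 library are not replicates, and how often such ranges lie apart over all genes was not counted.

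Among clotting genes, F5 was at 1.82 (1.63 to 2.04), F7 at 1.51 (1.24 to 1.84) and Pros1 at 1.62 (1.19 to 2.24), all higher with ApoE. Serpinc1, antithrombin, was at 1125 against 2029 CPM, a ratio of 0.554 (0.533 to 0.576), and Fgg at 2466 against 4028 CPM, a ratio of 0.612 (0.596 to 0.629). Fgb was lower at 0.687 (0.671 to 0.703) and Fga lower at 0.884. Of the 10 clotting factors, 6 were higher and 4 lower, so the group as a whole leaned little. F2 stood at 0.988 and F10 at 0.969, and without cluster 0 of the library lacking ApoE the log2 ratio of F10 was 0.30, on the other side.

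C6 had 27 UMIs with ApoE and 50 without, or 3.08 and 29.3 CPM, a ratio of 0.105 (0.0632 to 0.171), on fewer UMIs than the set minimum. A list of 10 Kupffer cell and macrophage markers summed to 345 CPM in the hepatocyte class without ApoE, with 10 of 10 detected, and to 6.96 CPM in that with ApoE, also with 10 detected. In the DKO-labelled library it summed to 1.20 CPM with 5 detected. Endothelial markers stood at 42.2 CPM without ApoE and 6.16 CPM with it. Macrophage transcripts thus moved with C6 between the WT-labelled libraries with and without ApoE. Between the DKO-labelled and WT-labelled ApoE libraries, C6 stood at 2.73 and 3.08 CPM while the macrophage list stood at 1.20 and 6.96 CPM. The part of macrophage transcripts in the C6 level was not tested. C6 was found in each hepatocyte cluster of the library without ApoE, from 11.8 to 38.5 CPM.

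In other liver cells of the ApoE libraries the members were read against Alb, since hepatocyte transcripts can also reach these cells as free RNA or in doublets, neither of which was measured. For each class the ratio of a member's UMIs to Alb UMIs was divided by the same ratio in hepatocytes of its library. The median of that quotient over members lay between 0.83 and 1.18 in the classes, which is the level at which member UMIs come in the same proportion to Alb as in hepatocytes. Of the members, 2 had a lower bound above 2 in both libraries, C6 in the cluster named Kupffer cells and Pros1 in endothelial cells.

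C6 had 26 UMIs in 162 Kupffer-cluster cells under the DKO label and 26 in 79 cells under the WT label. These are 124 CPM (81.2 to 182) and 197 CPM (128 to 288), and relative to Alb 98.6 (54.7 to 178) and 80.5 (45.1 to 143) times the hepatocyte ratio. T and B cells held 0 C6 UMIs in both libraries. The cluster also holds cells with stellate and fibroblast markers, so it was split by markers after these values were seen. Cells with macrophage markers alone, 33 and 21 in number, held 18 and 15 of the C6 UMIs, or 252 and 414 CPM. Cells with stellate or fibroblast markers alone, 8 and 6, held 2 and 2. Cells with markers of both kinds, 4 and 3, held 5 and 9, or 393 and 1040.2 CPM, above the cells with macrophage markers alone. Those with neither, 117 and 49, held 1 and 0.

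Pros1 had 24 UMIs in 65 endothelial cells under the DKO label and 27 in 57 under the WT label, or 199.6 CPM (128 to 297) and 244 CPM (161 to 355). Relative to Alb these are 7.88 (4.99 to 11.9) and 7.0 (4.55 to 10.3) times the hepatocyte ratio. F8, the factor VIII gene and no member, was an endothelial transcript as well, with 76 and 41 UMIs or 632 and 371 CPM, against 5.02 and 3.53 CPM in hepatocytes. Protein S thus had an endothelial and a pericentral level in both libraries.

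**Figure D4:**
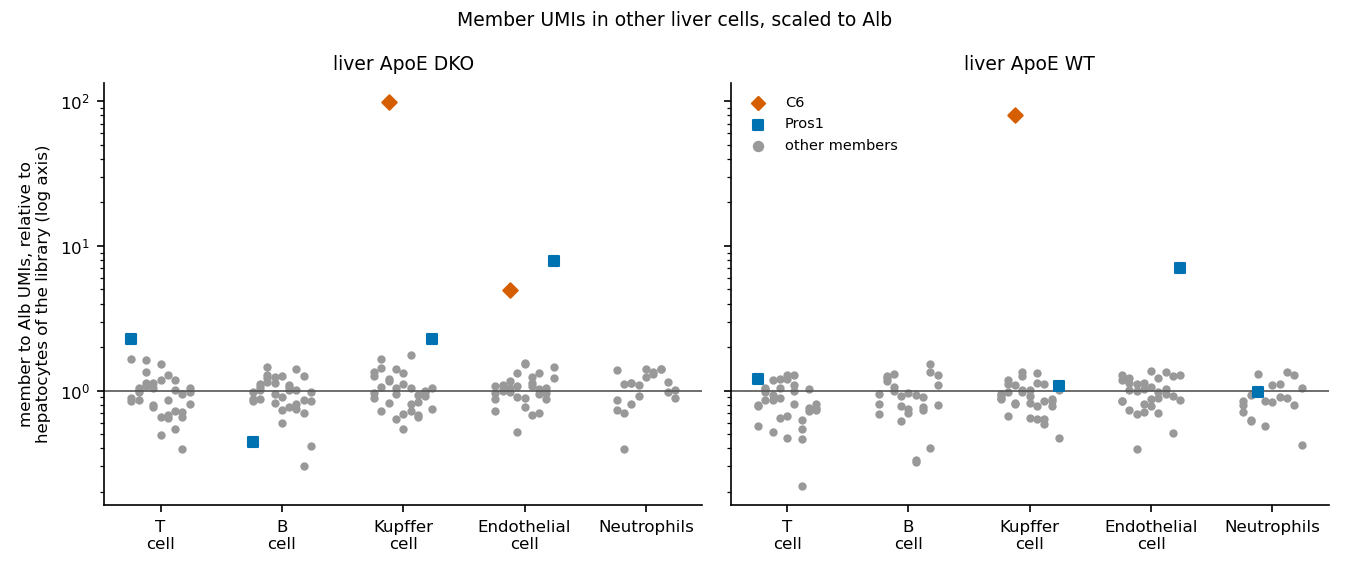
Ratio of member to Alb UMIs in other liver cell classes, relative to that ratio in hepatocytes of the same library, on a log axis, with 1 panel per ApoE liver library; diamonds are C6, squares Pros1 and circles the other members. C6 in the Kupffer cluster, at 98.6 and 80.5, and Pros1 in endothelial cells, at 7.88 and 7.0, lie above the rest in both panels.

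In aorta, 8 of the 29 genes had at least 100 UMIs over both libraries. Summed over all cells, 2 were higher and 6 lower under the DKO label, with a median log2 ratio of -0.30 against -0.01 over 10084 genes. None was higher past the fold, against 5.41% of all genes, and 1 was lower, against 5.79%. That gene was C2, with 71 and 128 UMIs, 11.4 and 20.1 CPM and a ratio of 0.568 (0.419 to 0.766). C2 overlaps Zbtb12 on the opposite strand. In whole-tissue sums, fewer cells of a type and less RNA per cell cannot be told apart, and the libraries held different numbers of cells by subtype, such as 199 and 305 in AP1, 221 and 402 in FB1 and 351 and 72 in VS3.

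Of the complement genes measured in aorta, C3 had 905 UMIs under the DKO label and 1188 under the WT label, or 145 and 186 CPM, a ratio of 0.781 (0.715 to 0.852). Cfb stood at 23.1 and 32.4 CPM, a ratio of 0.713 (0.572 to 0.886), and C4b at 34.8 and 37.9 CPM, a ratio of 0.919. Serping1, the C1 inhibitor, stood at 332 and 316 CPM, a ratio of 1.05 (0.985 to 1.12). Of the clotting genes, Pros1 stood at 54.1 and 64.2 CPM (0.842, 0.727 to 0.975), F10 had 92 UMIs in each library, and Serpinc1 stood at 16.5 and 21.3 CPM (0.776, 0.595 to 1.01) and overlaps Zbtb37 on the opposite strand. F13b had no UMI in either library, and C6 had 0 and 1. For F12 the ratio was 1.87 (1.10 to 3.26) on 42 and 23 UMIs.

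In both aorta libraries AP1 held more UMIs of Serping1, Cfb, C3, C2 and Pros1 than any other subtype, and MP3 held the most of F10. For Pros1 the AP1 share was only 17.8% and 15.1%. Serping1 and Cfb were centred on AP1, a cluster the authors name adipocytes. In AP1 adipocyte markers summed to 1.57 and 4.47 CPM and fibroblast markers to 18088 and 17665 CPM, so the data go against that name. In AP2, of the same name, adipocyte markers summed to 10.9 and 5.21 CPM, fibroblast markers to 7543 and 8781 CPM and smooth muscle markers to 18096 and 18108 CPM. AP1 held 57.7% and 61.5% of all Serping1 UMIs, at 1871 and 1852 CPM, and 75% and 71.0% of the Cfb UMIs. Serping1 leads AP1 and AP2, and C3 leads AP2, so their height there describes the clusters. F10 leads MP3, which the authors name macrophages, and whose 14 and 29 cells held 82 and 57 of the 92 F10 UMIs in each library. Monocyte markers summed to 4704 and 1428 CPM in MP3 and macrophage markers to 736 and 574 CPM, with 5 and 4 of 9 macrophage markers detected. Fibroblast markers summed to 145 and 4144.5 CPM there, and smooth muscle markers to 2142 and 5671 CPM. The monocyte list thus stood above the macrophage list in both libraries, but under the WT label the fibroblast and smooth muscle lists stood above both. With every cell weighted alike, the log2 ratio of F10 in aorta was -1.37.

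Between labels, C3 did not differ in 1 direction across subtypes. In AP1 it stood at 530.4 and 757 CPM (0.701, 0.609 to 0.806) and in AP2 at 220.0 and 437 CPM, a ratio of 0.503, where 7.74% of all genes were lower past the fold. In HS2 it stood at 397 and 205 CPM (1.93, 1.51 to 2.49) and in HS3 at 169.9 and 110.0 CPM (1.54, 1.03 to 2.28), where 8.51% and 10.6% of all genes were higher past the fold. The authors name the HS clusters haematopoietic stem cells; markers of those cells summed to 33.5 and 53.1 CPM there. In HS2, fibroblast markers summed to 8225 and 12237 CPM and smooth muscle markers to 15969 and 10226 CPM. Both lists moved between labels beside C3 and C4b, and their part in those ratios was not tested. C4b in HS2 was higher with C3, at 145 and 89.2 CPM (1.63, 1.10 to 2.43). C3 thus stood lower in AP1 and AP2 and higher in HS2 and HS3 under the DKO label, a difference between subtypes that was not tested.

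Serping1 differed between labels in other clusters than the one where it is highest. In the smooth muscle cluster VS1 it stood at 164 and 91.3 CPM (1.80, 1.36 to 2.39), where 4.57% of all genes were higher past the fold. In FB1, which the authors name fibroblasts, Serping1 stood at 138 and 60.8 CPM (2.27, 1.53 to 3.39), against 7.96% of all genes. Fibroblast markers summed to 14127 and 18502 CPM in FB1 and smooth muscle markers to 13911 and 6156 CPM, and their part in that ratio was not tested. Serping1 was at 1.40 in AP2, near level in HS3 at 0.968, and lower in the endothelial cluster EC1, at 98.0 and 317 CPM on 16 and 56 UMIs. Pros1 was near level in AP1, at 1.02, and stood at 0.834 in VS1. C2 had 32 and 57 UMIs in AP1 (0.591, 0.371 to 0.927), and in HS1 23.3 and 90.3 CPM on 18 and 17 UMIs.

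**Figure D5:**
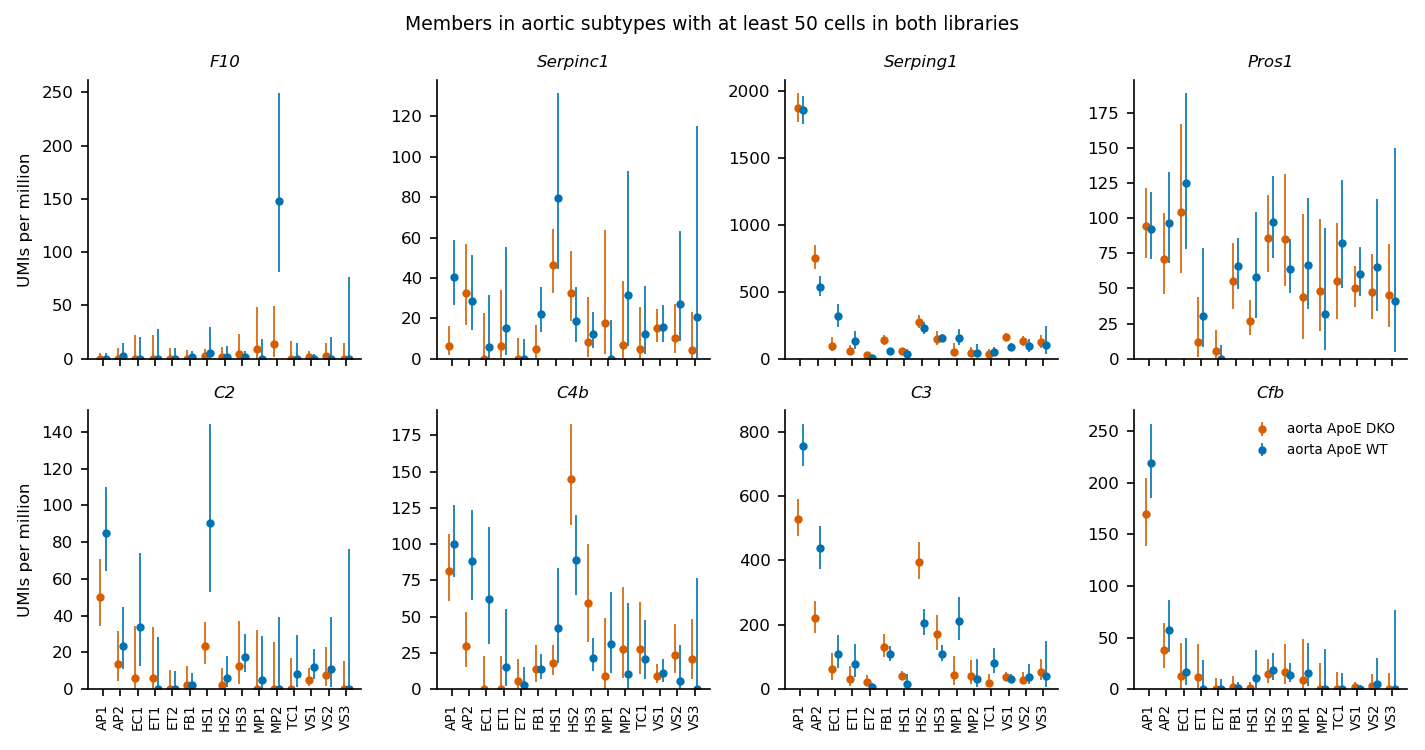
Levels of aortic members, 1 panel per gene, in CPM on axes that start at 0, across subtypes with at least 50 cells in both libraries; points are the 2 aorta libraries and bars 95% counting intervals. Serping1 is highest in AP1, at 1871 and 1852 CPM, and C3 is lower under the DKO label in AP1 and AP2 and higher in HS2.

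Among other genes of the pathways measured in aorta, most were lower, where 51.0% of all genes were. Of 16 other complement genes, 1 was higher and 15 lower, with a median of -0.34. Past the fold 2 were lower, among them Clu, clusterin, at 0.423. The C1q chain gene C1qa was lower at 0.678, short of the fold. Of 13 other clotting genes, 3 were higher and 10 lower with a median of -0.50. Past the fold 5 were lower, among them Serpine2, protease nexin, at 0.627. Gas6, a vitamin K-dependent ligand, was lower at 0.696, short of the fold. Plat, tissue plasminogen activator, named after its value was seen, was higher past the fold at 1.53 (1.30 to 1.79). The same limit on cell numbers holds for these sums.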

How the data were processed

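The authors deposited whole-number UMI counts per gene and cell in 3 tables, with their own cell types and clusters, made with Cell Ranger 7.1.0 on mm10 per the submitters' processing notes. How cells were filtered and doublets treated was not given in the sources used here; no doublet caller was run. Of the metadata, 27 columns of each data set were not used. Libraries shared 0 to 7 cell barcodes per pair and held from 1883798 to 10999072 UMIs.

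Members were matched by symbol. Their UMIs in a class or cluster were divided by all UMIs there (CPM), with exact Poisson 95% intervals and, for ratios, exact conditional binomial ones. PCR error and variation between cells or animals are not covered, and CPM is compositional. Hepatocyte clusters were dropped when markers of another class outnumbered hepatocyte markers among 10 leading genes (at least 200 CPM and 2-fold after adding 20 CPM). Non-members named were up to 4 of each list by UMIs, at least 100. The members, lists and markers were chosen with earlier results of these data known. Sums and intervals were tested on simulated data. Alternatives changed the total, the weight of cells, the cells or clusters kept, the fold and the UMI minimum. Python 3.11.15, numpy 2.4.6, scipy 1.17.1, pandas 2.3.3 and matplotlib 3.10.9 were used.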

Additional observations from a re-analysis of the deposited data

Results flagged for a closer look

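Cfb stood on different sides in the 2 tissues under the same labels. In hepatocytes its DKO-labelled over WT-labelled CPM ratio was 1.08 (1.03 to 1.14), and over all aorta cells it was 0.713 (0.572 to 0.886), with the counting intervals on opposite sides of 1. Each tissue is 1 library per label, and the difference between tissues was not tested.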

How the results depend on the processing

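No paired analysis was possible because each group is 1 library, and for the same reason no replicate could be left out. With mitochondrial genes and 6 genes of ribosomal or background RNA out of the total, the liver median was -0.033 with 0 members lower past the fold, while the median of all genes moved to 0.09. In clusters 5, 7 and 8 alone the liver median was 0.032, on the other side of 0, with 0 members lower past the fold; 28 of 35 members moved by more than their counting interval and 7 changed side. With clusters weighted alike 1 member was lower past the fold, and with the smaller fold tried 9 were. By the interval alone, 8 were higher and 18 lower. For the WT pair, the smaller fold gave 11 higher and 7 lower, and the interval alone 14 and 12. Without cluster 0 of the library lacking ApoE, the log2 ratio of F10 was 0.30 and that of Serpinc1 -0.59. In aorta, cells weighted alike, the smaller fold and the interval alone each gave 4 lower. Smooth muscle alone, with 2 members measured, gave a median of 0.20, 1 higher and 0 lower. A minimum of 20 UMIs gave 2 higher and 2 lower of 14, and no minimum 6 and 8 of 24. Depth limits C6 in hepatocytes and most members in aorta.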
